A study of Rattus norvegicus with 40 samples.

Results

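The miR-30 family in rat plasma is the set of rows of the count table named miR-30a, miR-30b, miR-30c, miR-30d or miR-30e, with any arm or gene copy. By this rule 9 of 752 miRNA rows were members. They were rno-miR-30a-5p, rno-miR-30c-5p, rno-miR-30d-5p and rno-miR-30e-5p on the 5p arm and rno-miR-30a-3p, rno-miR-30c-1-3p, rno-miR-30c-2-3p, rno-miR-30d-3p and rno-miR-30e-3p on the 3p arm, and the species prefix is left out from here on. miR-30b was not analysed here. All 9 rows had reads on both days and entered every test.

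The 20 rats were adult male Sprague-Dawley rats, and tail-vein EDTA plasma was taken from each on day 2 (D2) and day 9 (D9) after surgery. The 16 injured rats had traumatic brain injury (TBI) from lateral fluid percussion, and the other 4 were sham-operated. Video-EEG in the sixth month after the injury split the injured rats into 7 with epilepsy (TBI+) and 9 without (TBI-), so the split was not known when the blood was drawn. Each of the 40 libraries was 1 rat on 1 day, and the same 4 sham rats served every comparison with sham. Plasma holds RNA released by many tissues, so a change in the number of releasing cells and a change in the RNA released per cell cannot be told apart.

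A miRNA hairpin gives a 5p and a 3p arm, and usually 1 of them is the guide that is loaded into Argonaute and pairs with target mRNAs through its seed, the bases near its 5′ end. In the miR-30 family the 5p arms are the main guides and share a seed, and their 3p arms form separate seed groups. The family is abundant in kidney, heart, muscle and many epithelia, and known targets include regulators of autophagy, Notch signalling and the epithelial-mesenchymal transition. It is broadly expressed and not specific to neurons.

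The mature sequences show why the 5p rows form 1 seed family and why some of the rows are hard to count apart. They were taken from RefSeq (GRCr8), run 5′ to 3′, and carry the seed (bases 2 to 8) in capitals. The first 3 are guide arms, and miR-384-5p is the other miRNA of the RefSeq list that has the same seed and a row in the count table. The guide arm miR-30d-5p and the rows miR-30d-3p and miR-30e-3p had no sequence in the RefSeq list, so they are not printed.

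miR-30a-5p: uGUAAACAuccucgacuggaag

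miR-30e-5p: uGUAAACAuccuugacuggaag

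miR-30c-5p: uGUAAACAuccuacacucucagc

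miR-384-5p: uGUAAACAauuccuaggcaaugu

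miR-30a-3p: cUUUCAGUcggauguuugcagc

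miR-30c-2-3p: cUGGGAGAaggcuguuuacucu

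miR-30c-1-3p: cUGGGAGAggguuguuuacucc

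miR-30a-5p (chr9:33233946-33233967, plus strand) and miR-30e-5p (chr5:139637504-139637525, minus strand) differed at 1 of 22 bases, C13U, with positions counted from the 5′ end and the miR-30a base first. Compared with miR-30a-5p over the same 22 bases, miR-30c-5p had 5 differences, C13A, G14C, G18C, G19U and A20C. These guide arms shared their first 12 bases, and miR-384-5p shared 8 with miR-30a-5p. miR-30c-5p has 2 gene copies, Mir30c1 (chr5:139634505-139634527, minus strand) and Mir30c2 (chr9:33253695-33253717, plus strand), so its reads cannot be assigned to 1 of them. The 3p arms of these copies, miR-30c-1-3p (chr5:139634467-139634488, minus strand) and miR-30c-2-3p (chr9:33253735-33253756, plus strand), differed at 3 bases, A9G, C12U and U22C with the miR-30c-2-3p base first, and thus were the rows that told the copies apart. miR-30a-3p lies at chr9:33233987-33234008 on the plus strand. How reads that match several places were counted is not given in the sources used here, so the split of reads between miR-30a-5p and miR-30e-5p, and between miR-30a-3p and miR-30e-3p, is uncertain.

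Each miR-30c copy lay near another member. On chromosome 9, Mir30c2 lay 19.7 kb from Mir30a, and on chromosome 5, Mir30c1 lay 3.00 kb from Mir30e, measured between the 5′ ends of the mature guide arms. Mir30e and Mir30c1 lay within the bounds of Nfyc, which codes for a subunit of the transcription factor NF-Y. Mir30c2 lay within a long non-coding RNA gene and a pseudogene, Mir30d lay within a long non-coding RNA gene on chromosome 7, and no host gene was listed for Mir30a.

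The library totals ran from 404542 to 2562083 reads on D2 and from 140636 to 2864893 on D9, and the sham D9 libraries were the shallowest group, at 140636 to 358202. Library numbers in the sample names fell into 3 runs, and what the runs mean is not stated. All 4 sham D2 libraries belonged to the first run and all 4 sham D9 libraries to the third, so day and run cannot be told apart in sham rats. Blood-cell miRNAs such as miR-16-5p and miR-223-3p were detected in every library, while miR-122-5p, the best known liver miRNA, was listed with 0 reads in all 40.

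Together the 9 rows were a large part of the plasma miRNA reads. They took 6.72% to 11.1% of the reads of a library on D2 (mean 9.25% ± 1.07, SD, n = 20) and 9.83% to 16.4% on D9 (mean 11.97% ± 1.54, n = 20). The 5p rows held 97.9% to 99.6% of these family reads. The counts behind the family ranged from 16424 to 313239 reads per library.

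Among the guide arms, miR-30a-5p was the highest, and it ranked 6th of the 752 rows by mean CPM, its reads for every 1000000 reads of the library. Its mean was 40672 CPM ± 8397 (SD, n = 40 libraries), and it exceeded miR-30d-5p in 40 of 40 libraries. miR-30d-5p at 28592 CPM ± 4509.7 ranked 9th and miR-30e-5p at 28259 CPM ± 8140.1 ranked 11th. Neighbours in this order did not all differ beyond their spread: miR-30d-5p was above miR-30e-5p in 18 of 20 D2 libraries but in 8 of 20 D9 libraries. miR-30c-5p was lower, at 7178 CPM ± 3027, and was below miR-30e-5p in 40 of 40 libraries. The mature miRNAs with a RefSeq sequence are 22 or 23 bases long, so these levels were compared without dividing by length.

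The 3p rows fell into a middle pair and a low group. miR-30a-3p (652 CPM ± 167) and miR-30e-3p (645 CPM ± 161, both SD, n = 40) had 32099 and 31770 reads in total, a difference of 1.02%, and within a library they differed by at most 7.55%. They are nearly identical miRNAs and were read as 1 signal, with the first standing for both unless stated. miR-30d-3p had 53.8 CPM ± 19.2, miR-30c-2-3p 41.7 CPM ± 15.3 and miR-30c-1-3p 27.8 CPM ± 14.1. In the sham D9 libraries these last 3 rows rested on 6 to 37, 3 to 14 and 2 to 11 reads, so their D9 levels in sham rats were imprecise. A floor of 3 reads corresponded to 21.3 CPM in the shallowest library, and such floors cover counting error only.

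The remaining miRNA of the RefSeq list with the guide seed, miR-384-5p, which is enriched in brain, had 89 reads in all libraries together, beside 1798521 of miR-30a-5p, 1231831 of miR-30e-5p and 368360 of miR-30c-5p. miR-30d-5p is not among these because the RefSeq list had no sequence for it.

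**Figure D1:**
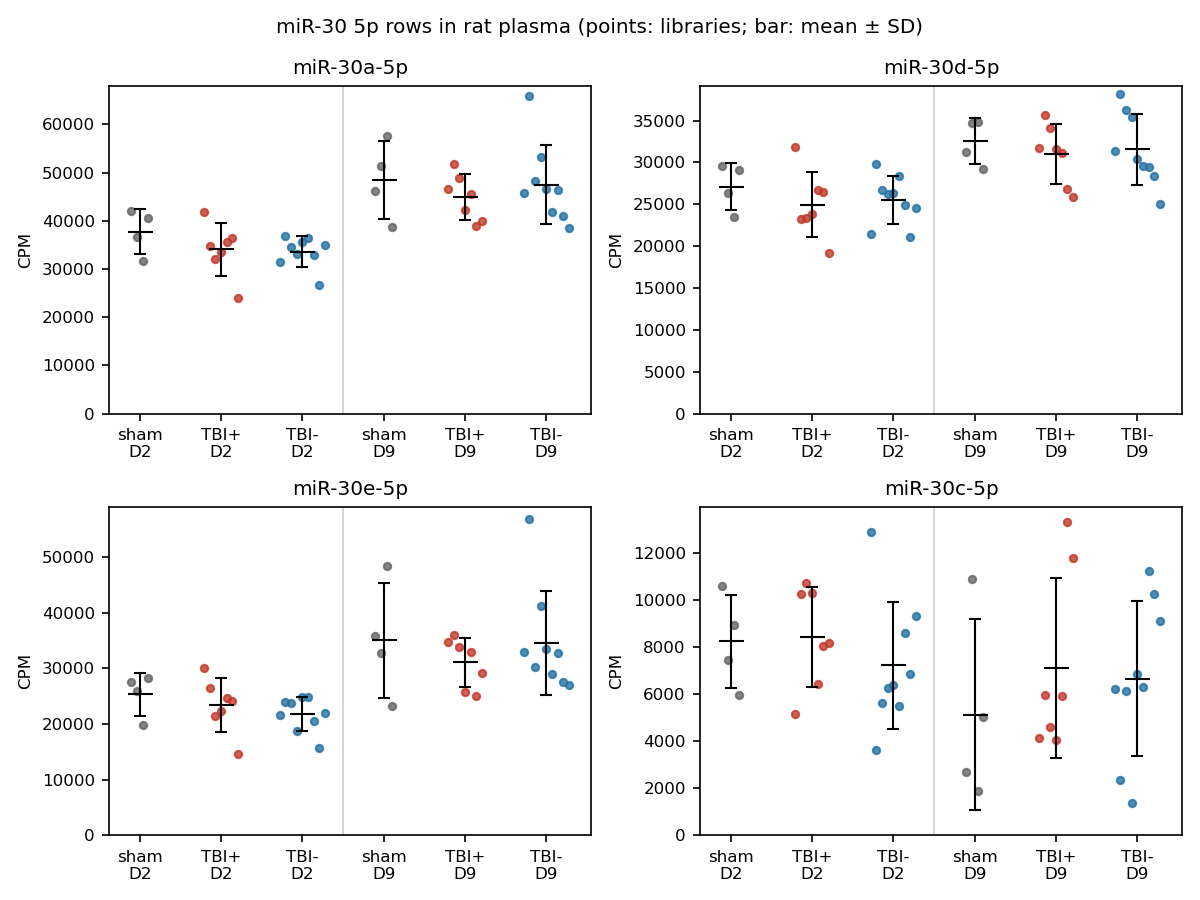
Level of each 5p row in CPM (y axis, from 0) by group and day (x axis), with 1 point per library and a black bar for the mean ± SD. The D9 libraries of miR-30a-5p (38412 to 65872 CPM) lie mostly above those of D2 (23963 to 41938 CPM), within a day the groups overlap in all 4 rows, and miR-30c-5p reaches down to 1358 CPM on D9.

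The comparison of TBI with sham asks whether the injury changed the plasma level of the family. On D2 the values of miR-30a-5p were 41938, 36716, 31718 and 40629.8 CPM in the 4 sham rats. In the 16 TBI rats they ran from 23963 through a median of 34734 to 41912 CPM. The groups overlapped, but the TBI rats reached well below the lowest sham rat. The mean was 33807 CPM ± 4133 in TBI rats and 37750 CPM ± 4593 in sham rats (SD). An exact permutation test over rats gave an unadjusted p of 0.131 for this difference.

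With the TMM scaling of edgeR the fold changes were close to 1. The log2 fold change of TBI over sham on D2 was -0.02 for miR-30a-5p (SE 0.16, 95% interval -0.36 to 0.31, edgeR quasi-likelihood adjusted p = 0.953). Over the 9 rows it ran from -0.15 (miR-30d-3p) to 0.13 (miR-30a-3p), with a median of 0.04 beside a median of 0.09 over all 565 miRNAs tested. None of the 9 rows was differentially expressed at an adjusted p under 0.05 and none had an unadjusted p under 0.05, with 6.19% and 18.2% of all miRNAs past these thresholds in edgeR, and DESeq2 called none of the 9 either. For miR-30a-5p, miR-30d-5p and miR-30e-5p the interval bounds lay between -0.40 and 0.38 on the log2 scale. None of the 9 rows had groups without overlap in CPM, against 2.12% of all miRNAs. Of the brain list (miR-124-3p, miR-128-3p, miR-9a-5p, miR-129-5p and miR-132-3p), 3 of 5 were called higher in TBI on D2.

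The other guide arms also overlapped on D2. miR-30e-5p was at 27506, 25881, 19761 and 28325 CPM in sham rats and at 14507 to 30159 CPM, with a median of 23063, in TBI rats. miR-30c-5p, the guide with the largest relative spread (coefficient of variation 29.8% over the 20 D2 libraries, beside 12.7% for miR-30a-5p), was at 10597, 7460.1, 8954 and 5958 CPM in sham rats and at 3633 to 12876 CPM, with a median of 7434, in TBI rats. Its log2 fold change was 0.04 (SE 0.23, interval -0.43 to 0.51).

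Both outcome groups overlapped with sham on D2. TBI+ rats had 34046 CPM ± 5421 of miR-30a-5p (SD, n = 7) and TBI- rats 33620.4 CPM ± 3146 (n = 9), beside 37750.2 CPM ± 4593 in sham rats (n = 4). The edgeR log2 fold change against the same sham libraries was -0.06 in TBI+ and 0.01 in TBI-. It uses TMM scaling, and scaled by library total alone, as CPM is, the value for rno-miR-30a-5p was -0.15 in TBI+ and -0.17 in TBI-. None of the 9 rows was called in TBI+ over sham (3.19% of all miRNAs) or in TBI- over sham (6.19% of all miRNAs), and non-overlapping groups, of which the family had none, made up 3.87% and 3.83% of the miRNAs. In the first run, which held all sham D2 libraries and 4 TBI+ libraries, the log2 fold change of miR-30a-5p was -0.06 (interval -0.58 to 0.45).

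On D9, a week later, the guide arms again overlapped between injured and sham rats. miR-30a-5p was at 46148, 51466, 57513 and 38659.8 CPM in sham rats. In TBI rats it ran from 38412 through a median of 46081 to 65872 CPM. Its log2 fold change was 0.05 (SE 0.20, interval -0.36 to 0.46, edgeR adjusted p = 0.904), a sign that turned with other scalings, and the intervals of miR-30a-5p, miR-30d-5p and miR-30e-5p together spanned -0.43 to 0.49.

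The rows that stood farther from sham on D9 were miR-30a-3p, its twin row miR-30e-3p, and miR-30c-5p. miR-30a-3p, a passenger arm, was at 320, 426, 243 and 997 CPM in the sham rats and at 262 to 939 CPM, with a median of 758, in the TBI rats. Thus 3 sham rats were low and sham rat 4 was higher than every TBI rat. The 3 low sham libraries were the shallowest of the series, with totals of 140636, 162125 and 202059 reads and 45, 69 and 49 reads of miR-30a-3p. Sham rat 4 had a total of 358202 and 357 reads of miR-30a-3p. The part of depth in this difference was not tested. The log2 fold change was 0.60 (SE 0.33, interval -0.08 to 1.28, edgeR adjusted p = 0.417), and an exact two-sided permutation test of log2(CPM + 1) over rats gave an unadjusted p of 0.0378, on which no correction over miRNAs was made. Without sham rat 4 the edgeR estimate rose to 1.21 (adjusted p = 0.0454), so that library decided the call.

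miR-30c-5p on D9 was at 2695, 10899, 1886 and 5022 CPM in sham rats and at 1358 to 13326 CPM, with a median of 6175, in TBI rats. The sham rats covered most of the range of the TBI rats. The log2 fold change was 0.55 with an interval of -0.36 to 1.46 (SE 0.45, edgeR adjusted p = 0.652), so the interval reached a ratio of 2.75. It was -0.03 with the run of library numbers as a term.

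None of the 9 rows was differentially expressed in TBI over sham on D9, with 3.51% of all 541 miRNAs differentially expressed by edgeR, and none had an unadjusted p under 0.05, beside 15.9% of all miRNAs. The median log2 fold change of the 9 rows was 0.19, beside 0.30 over all miRNAs tested. Scaling to miR-28-3p moved these medians to -0.01 and 0.09. The family also had no call in TBI+ over sham (1.85% of all miRNAs) or in TBI- over sham (4.81% of all miRNAs). In TBI+ and TBI- the log2 fold change of miR-30a-3p was 0.72 and 0.50, and that of miR-30a-5p was 0.02 and 0.06. Groups without overlap in CPM numbered 0 of 9 rows in each of these comparisons, against 0.555%, 2.17% and 0.963% of all miRNAs. The red blood cell list (miR-451-5p, miR-144-5p, miR-144-3p and miR-16-5p in the table) summed to 13565 to 44768 CPM in sham D9 libraries and 17910.0 to 74325 CPM in TBI D9 libraries, with 0 of its 4 members called. Its part in the values of miR-30c-5p and miR-30a-3p was not tested.

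**Figure D2:**
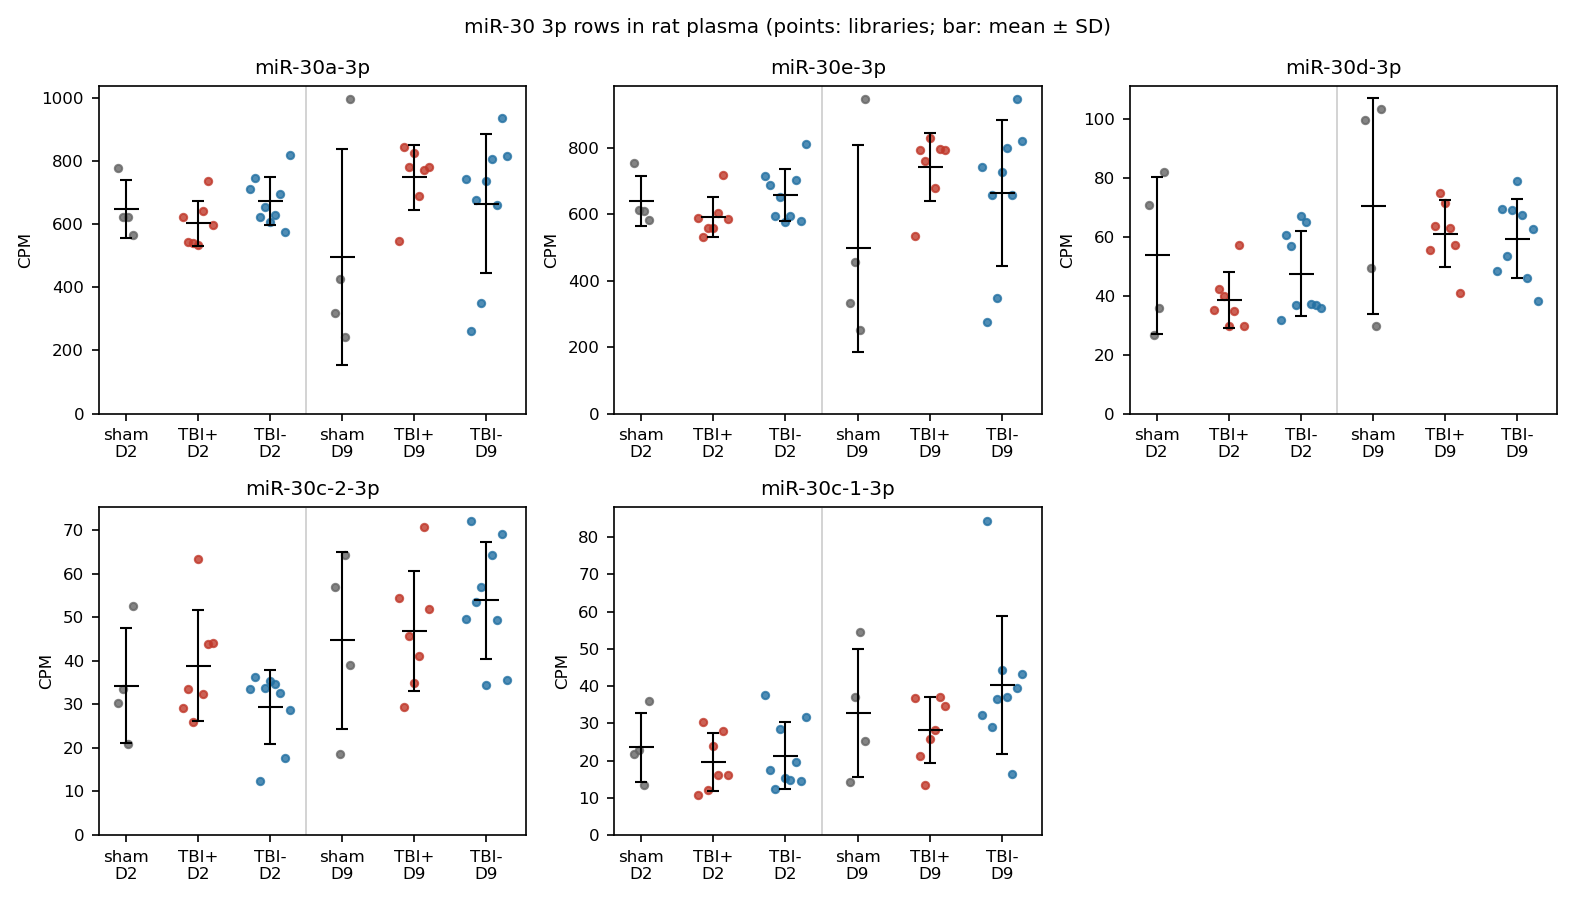
Level of each 3p row in CPM (y axis, from 0) by group and day (x axis), with 1 point per library and a black bar for the mean ± SD. On D9 miR-30a-3p and miR-30e-3p split into low libraries (3 sham rats and 2 TBI- rats) and the rest, and sham rat 4 is the highest of miR-30a-3p at 997 CPM.

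The comparison of TBI+ with TBI- asks whether the family told apart rats that would later have epilepsy. miR-30a-5p in TBI+ ran from 23963 through a median of 34835 to 41912 CPM on D2, and in TBI- from 26696 through 34634 to 36859.6 CPM. On D9 it ran from 38878 through 45564 to 51842 CPM in TBI+ and from 38412 through 46360.4 to 65872 CPM in TBI-. The outcome groups overlapped on both days in each of the 9 rows, as they did in all other miRNAs (0% without overlap on either day).

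Between the outcome groups no member was called on D2 or on D9, where edgeR called 0 of 565 and 0 of 541 miRNAs (0% on both days, with 38 and 22 miRNAs at an unadjusted p under 0.05). The log2 fold change of miR-30a-5p in TBI+ over TBI- was -0.07 (interval -0.39 to 0.25) on D2 and -0.04 (interval -0.44 to 0.36) on D9. The estimates farthest from 0 were those of low-count arms, with miR-30d-3p at -0.37 (interval -0.88 to 0.14) on D2 and miR-30c-1-3p at -0.40 (interval -1.06 to 0.26) on D9. DESeq2 also called 0 miRNAs on both days.

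**Figure D3:**
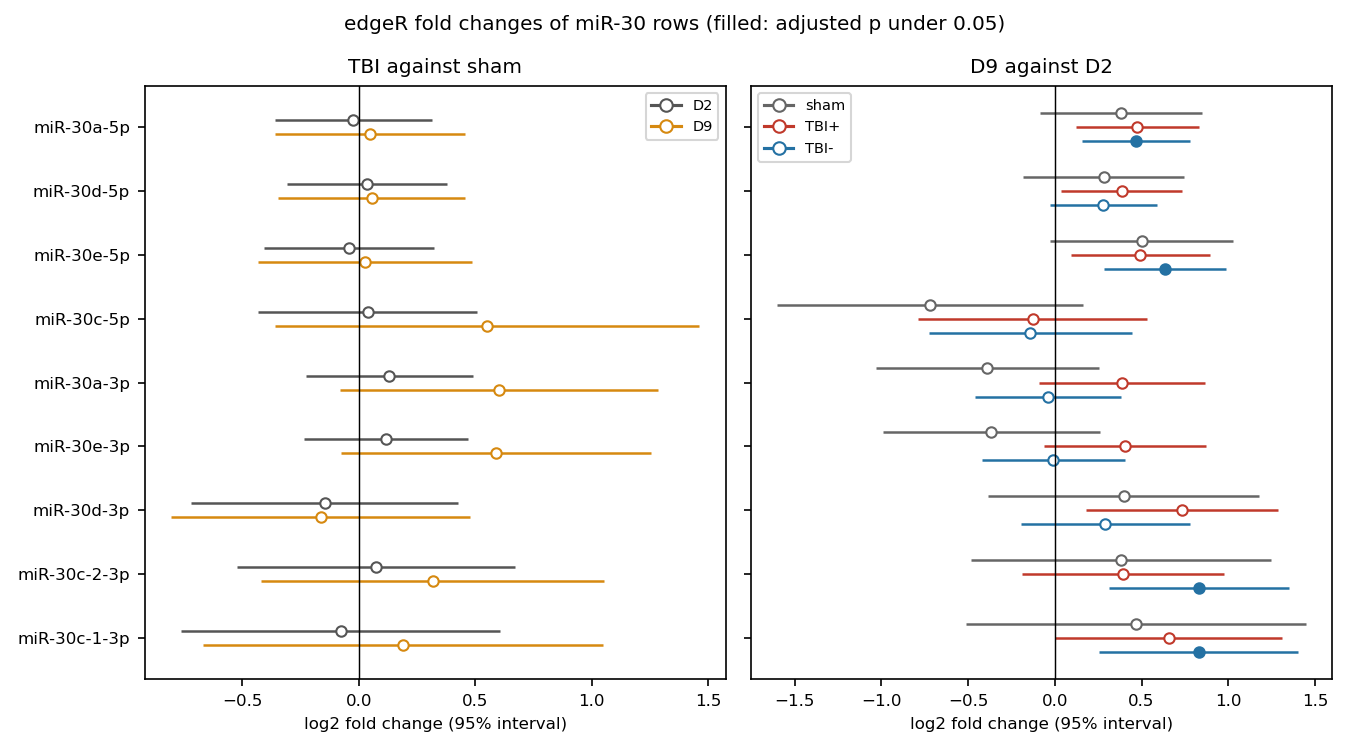
Log2 fold change from edgeR (x axis, points) with its 95% interval (lines) for each of the 9 rows (y axis), for TBI over sham on D2 and D9 (left) and for D9 over D2 in each group (right), where filled points have an adjusted p under 0.05. On the left every interval holds 0, and on the right 4 TBI- points are filled, from 0.47 for miR-30a-5p to 0.83 for miR-30c-2-3p and miR-30c-1-3p.

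From D2 to D9 within rats, most guide arms were higher. miR-30a-5p was higher on D9 in 19 of 20 rats, with a mean log2 change in CPM of 0.43 ± 0.26 (SD over rats). miR-30e-5p was also higher in 19 of 20 rats (0.53 ± 0.41), as was miR-30d-5p (0.30 ± 0.21). Only sham rat 4 had lower miR-30a-5p and miR-30e-5p on D9. The guide arm miR-30c-5p did not share this direction, with 8 rats higher and 12 lower on D9 (-0.45 ± 0.95). Apart from TBI- rats 5 and 6, the D2 and D9 libraries of each rat lay in different runs of library numbers. Day and run were thus not separated in these counts of rats.

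In TBI- rats the rise passed the test for miR-30e-5p and miR-30a-5p in the fit without the rat, and with the rat as a block it passed for miR-30e-5p alone of the guide arms (edgeR adjusted p = 0.0257, and 0.116 for miR-30a-5p). miR-30e-5p went from 15593 to 24828 CPM on D2, with a median of 22067, to 26942 to 56876 CPM on D9, with a median of 32736. The lowest D9 library was thus above the highest D2 library. Its log2 fold change was 0.64 (SE 0.18, interval 0.28 to 0.99, edgeR adjusted p = 0.00632), a ratio of 1.55. miR-30a-5p went from 26696 to 36859.6 CPM on D2 to 38412 to 65872 CPM on D9, also without overlap, with a log2 fold change of 0.47 (SE 0.15, edgeR adjusted p = 0.0247). Both were higher on D9 in 9 of 9 rats. These 2 of 9 rows were above D2 without overlap, beside 0.538% of all miRNAs with a read in TBI- rats.

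The other rows that rose in TBI- rats were the 3p arms of the miR-30c copies. miR-30c-2-3p went from 12.4 to 36.2 CPM on D2, with a median of 33.5, to 34.6 to 72.3 CPM on D9, with a median of 53.4, so the days overlapped only at their edges. Its log2 fold change was 0.83 (SE 0.26, edgeR adjusted p = 0.0159). miR-30c-1-3p went from a median of 17.5 CPM (12.4 to 37.6) to one of 37.1 CPM (16.3 to 84.3), with a log2 fold change of 0.83 (SE 0.29, edgeR adjusted p = 0.0304). In the D2 libraries of TBI- rats miR-30c-2-3p rested on 5 to 73 reads and miR-30c-1-3p on 5 to 82, so the lowest levels were imprecise. By their names, the rows that rose held 1 guide arm and 1 miR-30c passenger arm from each cluster, on chromosome 9 and on chromosome 5, with the uncertain split of miR-30a-5p and miR-30e-5p given above. The rows of the other arms of these hairpins, miR-30c-5p, miR-30a-3p and miR-30e-3p, did not rise, so a rise of whole clusters was not shown.

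In all, 4 of 9 rows rose and 0 fell from D2 to D9 in TBI- rats, with 20.1% of all 581 miRNAs called in either direction and 7.23% called higher. The median log2 fold change of the 9 rows was 0.29, beside 0.00 over all miRNAs. The remaining 5 rows did not pass, with miR-30d-5p at 0.28 (interval -0.03 to 0.59), miR-30d-3p at 0.29 (interval -0.20 to 0.78), miR-30a-3p at -0.04, miR-30e-3p at -0.01 and miR-30c-5p at -0.14 (interval -0.72 to 0.44).

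These calls depended on single rats and on the runs of library numbers. Without TBI- rat 2 none of the 9 rows was called (3.79% of all miRNAs higher), without rat 3 (5.36%) or rat 8 (5.18%) only miR-30e-5p was, and without any other single rat 3 or 4 were. With the run as a term 0 rows were called (2.24% of all miRNAs higher), with log2 fold changes of 0.44 for miR-30a-5p and 0.56 for miR-30e-5p. In the 2 TBI- rats whose libraries shared a run the log2 fold changes were 0.14 for miR-30a-5p and 0.17 for miR-30e-5p, with 0 rows called (0.177% of all miRNAs higher). Within the second run, miR-30e-5p was at 18787 to 24828 CPM in 6 D2 libraries and at 27546 to 33560.3 CPM in 4 D9 libraries of TBI- rats, and 2 of 9 rows were above D2 without overlap there, beside 6.25% of all miRNAs. With the rat as a block 3 rows were called (6.71% of all miRNAs higher), and the log2 fold change of miR-30a-5p was 0.46.

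Some of the listed blood-cell miRNAs moved with the same contrast. The myeloid and platelet list (miR-223-3p, miR-142-3p and miR-126a-3p) summed to 1559 to 4683 CPM on D2 and 4267 to 12211 CPM on D9 in TBI- rats, and 3 of its 3 members rose. The red blood cell list summed to 10781 to 48279 CPM on D2 and 17910.0 to 59035 CPM on D9, and 1 of its 4 members rose, miR-144-3p. The hemolysis index, the log2 ratio of miR-451-5p to miR-23a-3p, went from a mean of -0.28 to 1.26, and with it as a covariate 0 of the 9 rows were called (2.58% of all miRNAs higher). In that fit the log2 fold change was 0.51 for miR-30e-5p, 0.46 for miR-30a-5p, 0.84 for miR-30c-2-3p and 0.36 for miR-30c-1-3p. The index also depends on miR-23a-3p, whose CPM ran against miR-30a-5p over the 40 libraries (Spearman's rho -0.88). Mean miR-451-5p itself went from 3272.5 to 5631.9 CPM in TBI- rats. The index was thus not independent of the miR-30 rows, and what the lost calls reflect was not tested. The brain list summed to 3738 to 7918 CPM on D2 and 2491 to 9419 CPM on D9, with 0 of 5 members higher and 3 lower. The liver list (miR-122-5p, miR-192-5p and miR-194-5p) summed to 13883 to 103607 CPM on D2 and 29579 to 107554 CPM on D9, with 0 of 2 tested members called and miR-122-5p at 0. The part of the myeloid and platelet miRNAs in the rise of the miR-30 rows was not tested.

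In TBI+ rats the same guide arms were higher on D9 by a like amount but did not pass the adjusted threshold. miR-30a-5p went from 23963 to 41912 CPM on D2 to 38878 to 51842 CPM on D9 and was higher in 7 of 7 rats, with a log2 fold change of 0.48 (SE 0.18, interval 0.12 to 0.83, edgeR adjusted p = 0.0542). miR-30d-3p, the passenger arm of Mir30d, went from a median of 35.2 CPM (29.7 to 57.2) to one of 63.1 CPM (40.8 to 75.0) and was also higher in 7 of 7 rats, with a log2 fold change of 0.73 (SE 0.28, edgeR adjusted p = 0.0592). None of the 9 rows was called, with 16.0% of all miRNAs called, while 5 had an unadjusted p under 0.05, beside 31.0% of all miRNAs. DESeq2 called both miR-30a-5p and miR-30d-3p (5.34% of all miRNAs higher), as did scaling to miR-28-3p (3.79% higher) and a minimum count (10.8% higher). Each TBI+ rat had its D2 and D9 libraries in different runs, so day and run were not separated within these rats.

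In sham rats miR-30a-5p was higher on D9 in 3 of 4 and miR-30d-5p in 4 of 4. The log2 fold change of miR-30a-5p was 0.38 (interval -0.08 to 0.85, edgeR adjusted p = 0.421), and 0 of 9 rows were called, with 5.68% of all miRNAs called, and 0 of the 9 had an unadjusted p under 0.05, beside 17.6% of all miRNAs. DESeq2 called 3 rows, miR-30a-5p, miR-30d-5p and miR-30e-5p (5.51% of all miRNAs higher), and scaling to miR-28-3p called miR-30a-5p (4.82% higher). Run and day coincided in these rats.

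The change from D2 to D9 was not shown to differ between groups. For the difference of TBI and sham in this change, 0 of 9 rows were called (3.27% of all miRNAs), and miR-30a-5p was at 0.09 (interval -0.43 to 0.61). For the difference of TBI+ and TBI-, 0 of 9 rows and 0% of all miRNAs were called (edgeR, 42 miRNAs at an unadjusted p under 0.05, DESeq2 1 miRNA and no member), and miR-30a-5p was at 0.01 (interval -0.46 to 0.48). Calls in TBI- and not in TBI+ thus do not show that these groups differ.

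**Figure D4:**
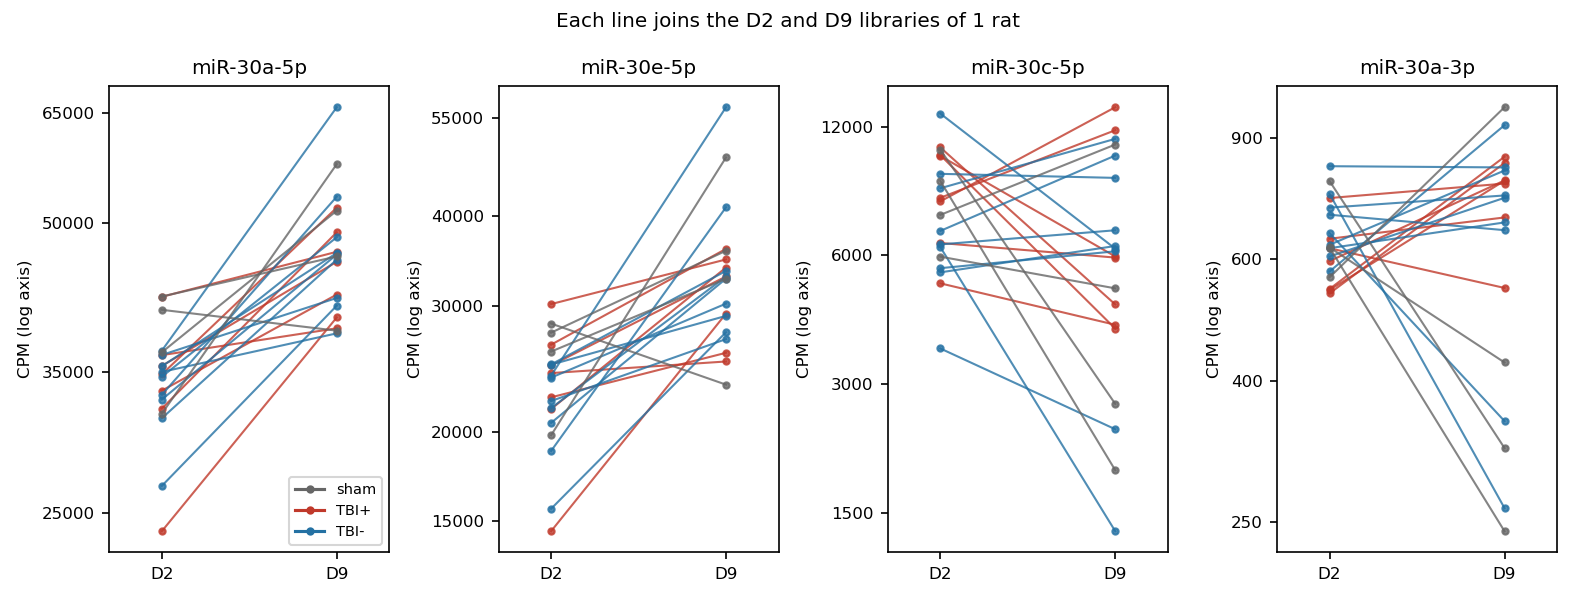
Level in CPM (y axis, log scale) of 4 rows on D2 and D9 (x axis), with 1 line per rat coloured by group. The lines of miR-30a-5p and miR-30e-5p rise in 19 of 20 rats, those of miR-30c-5p rise in 8 of 20, and those of miR-30a-3p rise in 12 of 20 and fall as low as 243 CPM.

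The ratio of miR-30a-5p to the miR-30a-3p row shifted between the days, although that row is 1 signal with miR-30e-3p and cannot be given to 1 hairpin. miR-30a-5p had 54.3 ± 8.42 reads for each read of miR-30a-3p on D2 (SD, n = 20) and 89.1 ± 61.8 on D9. This arm ratio was higher on D9 in 15 of 20 rats, by 0.49 ± 0.83 on the log2 scale (exact two-sided sign-flip permutation test over rats, p = 0.013, adjusted p = 0.0195 over 3 ratios chosen after the values were seen). The highest ratios were in few libraries. The ratio reached 237 in sham rat 3 and 251 in TBI- rat 2 on D9, while the median of D9 was 62.9 and that of D2 54.6. Without sham rats 1 and 3 and TBI- rats 2 and 4 the change was 0.14 ± 0.42 (n = 16 rats), given with no test because these rats were picked for the lowest D9 values of miR-30a-3p and miR-30c-5p, which enter the ratios.

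The balance among the guide arms also shifted. miR-30c-5p had 23.3% ± 8.15 of the reads of miR-30a-5p on D2 (SD, n = 20) and 14.7% ± 8.92 on D9, and this ratio was lower on D9 in 17 of 20 rats. The mean log2 change was -0.88 ± 1.05 (exact two-sided sign-flip permutation test over rats, p = 0.00062, adjusted p = 0.00186 over the same 3 ratios). Without the same 4 rats it was -0.50 ± 0.72, lower in 13 of 16. The ratio of miR-30d-5p to miR-30d-3p changed by -0.17 ± 0.39 (exact permutation p = 0.0707), and without those 4 rats by -0.21 ± 0.35. Day and run of library numbers were not separated in these ratios.

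The ratio of miR-30a-5p to the sum of miR-30d-5p and miR-30e-5p, a sum chosen after the values were seen, was 0.676 to 0.763 in all 40 libraries, with a mean of 0.712 ± 0.021 on D2 and 0.721 ± 0.021 on D9 (SD, n = 20 each). The ratios to single members shifted more, with the mean log2 ratio of miR-30a-5p to miR-30d-5p at 0.43 ± 0.08 on D2 and 0.56 ± 0.10 on D9, and that of miR-30d-5p to miR-30e-5p at 0.16 ± 0.16 and -0.06 ± 0.23.

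The libraries low in both miR-30c-5p and miR-30a-3p on D9 were sham rats 1 and 3 and TBI- rats 2 and 4. They had 2695, 1886, 2351 and 1358 CPM of miR-30c-5p, the lowest 4 values of that day. In miR-30a-3p they had 320, 243, 262 and 350 CPM, again the lowest 4. Their library totals were 140636, 202059, 332161 and 491342 reads. The same libraries were not low in the main guide, with 46148, 57513, 65872 and 53218 CPM of miR-30a-5p.

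Across the libraries of a day, miR-30c-5p moved with miR-16-5p, a miRNA abundant in red blood cells. The relation was one of 12 examined after the values were seen (6 on each day), on log2(CPM + 1). On D2 Pearson's r was 0.81 and Spearman's rho 0.69 (permutation p = 3e-05 and 0.00093, adjusted 0.00018 and 0.00408, n = 20). On D9 r was 0.92 and rho 0.88 (permutation p = 1e-05, the smallest that 100000 permutations can give, and 2e-05, adjusted 0.00012 and 0.00024, n = 20). Without the 2 libraries farthest from the median r was 0.74 and 0.90, and within runs of at least 6 libraries it was 0.77 and 0.87 on D2 and 0.93 and 0.89 on D9. Of the red blood cell list, only miR-16-5p was set against miR-30c-5p by itself. It was not among the 5 miRNAs outside the family with the highest rho to miR-30c-5p over the 40 libraries. Another member of the list, miR-144-3p, was among those with the highest rho to miR-30e-5p (0.80), a guide arm that went against miR-30c-5p (rho -0.42). A part of red blood cells in the values of miR-30c-5p was not tested. Values in CPM share the library total, which ties such relations together.

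**Figure D5:**
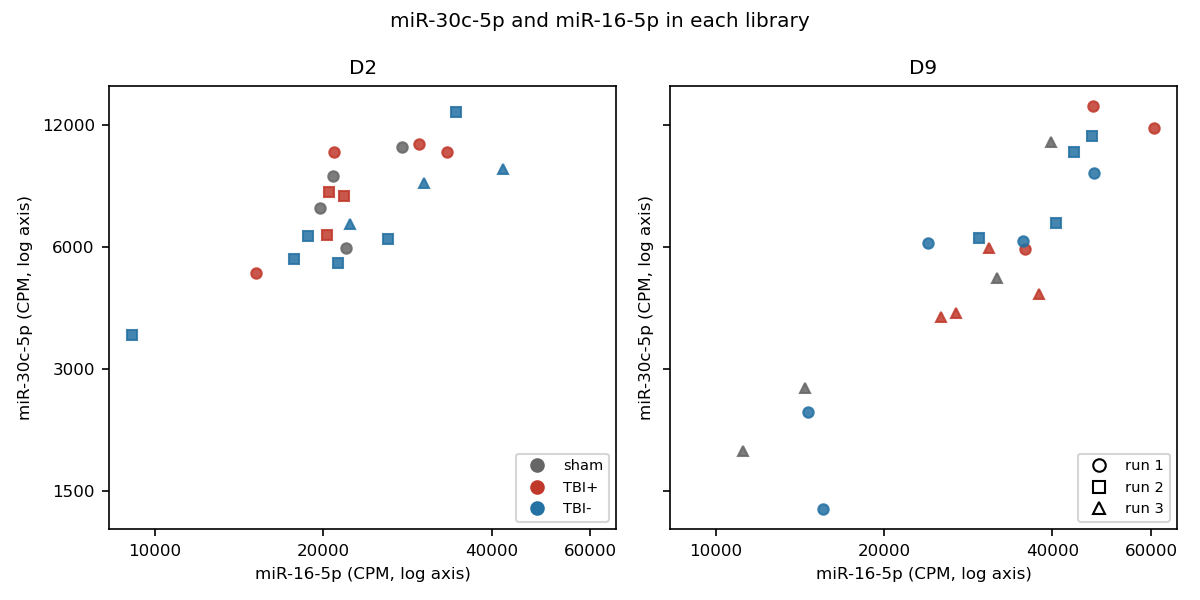
miR-30c-5p (y axis) against miR-16-5p (x axis), both in CPM on log scales, on D2 (left) and D9 (right), with 1 point per library, colours for groups and shapes for the 3 runs of library numbers. The points rise together on both days (r = 0.81 and 0.92 on the log2 scale), and the lowest 4 of D9 are sham rats 1 and 3 and TBI- rats 2 and 4.

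The hemolysis index itself was not clearly related to miR-30c-5p, with r = 0.48 on D2 (permutation p = 0.0343, adjusted p = 0.0588) and 0.37 on D9 (permutation p = 0.106, n = 20 each). On D9 miR-30a-3p was lower where miR-30a-5p was higher (r = -0.78, rho = -0.68, permutation p = 6e-05 and 0.00136, adjusted 0.00024 and 0.00408, n = 20), with r = -0.59 without the 2 farthest libraries and -0.93 and -0.63 within runs. On D2 no relation was detected (r = 0.27, rho = 0.29, permutation p = 0.247 and 0.214). miR-30c-5p and miR-30a-5p were related on D9 (r = -0.62, rho = -0.55, permutation p = 0.00299 and 0.0138, adjusted 0.00897 and 0.031), with r = -0.85 in the first run but -0.14 in the third run, and on D2 they had the same sign (r = -0.27, rho = -0.44, permutation p = 0.243 and 0.052, adjusted 0.297 and 0.0798), with r = -0.43 without the 2 farthest libraries and -0.60 and -0.48 in the first and second run.

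On D9 these guide arms were also related to depth, with a larger r in the first run than in the third. miR-30c-5p rose with the library total on D9 (r = 0.59, rho = 0.68, permutation p = 0.00597 and 0.00135, adjusted 0.0143 and 0.00408), with r = 0.90 in the first run and 0.11 in the third run. miR-30a-5p fell with it (r = -0.54, rho = -0.54, permutation p = 0.0127 and 0.0155, adjusted 0.0254 and 0.031), with r = -0.91 and -0.18 in those runs. On D2 the relations with the total were r = 0.06 and -0.01 (permutation p = 0.81 and 0.958), but within the first and second run they were -0.75 and 0.57 for miR-30c-5p and 0.37 and -0.03 for miR-30a-5p. Without the 2 libraries farthest from the median total, r on D9 was 0.79 and -0.61.

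The miRNAs with patterns most like the summed guide arms were ranked by Spearman's rho of CPM over the 40 libraries, among the 130 miRNAs that reached 10 reads in each of them. They were miR-34c-5p (rho 0.84), miR-142-3p (0.82), miR-147 (0.76), miR-144-3p (0.75) and miR-18a-5p (0.73). Within D2 alone the same rho values were 0.60, 0.52, 0.40, 0.57 and 0.12, and within D9 alone they were 0.55, 0.77, 0.50, 0.64 and 0.51. CPM values share the library total, and the 40 libraries are 20 rats on both days.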

How the data were processed

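Small RNA libraries (TruSeq small RNA kit) were made from 40 plasma samples. The authors trimmed the reads with Trimmomatic 0.36, merged the flow cells, aligned with Bowtie2 to the rat genome Rno6 and counted reads on mature miRBase miRNAs with featureCounts, and the deposited values are raw read counts. Library totals (140636 to 2864893) were sums over the 752 rows, and 0 pairs of libraries were identical.

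Each day was fitted over its 20 libraries, and D9 against D2 over all 40 with 6 group-day levels, with edgeR's quasi-likelihood test (4.0.16, TMM) and Benjamini-Hochberg adjustment over all miRNAs with a read (565 on D2, 541 on D9, 581 in all). A row was called at an adjusted p under 0.05. Exact permutation tests used log2(CPM + 1). Replicates were separate rats, and intervals and floors cover counting error or the spread between these rats only. D2 and D9 libraries were paired by the group and animal number of the titles, which were taken to name the same animal. Deviations from group means correlated by over 0.1 in 8 of 20 rats (-0.38 to 0.64), so these values did not by themselves show the pairing.

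Named rows were all miR-30 rows, the 5 miRNAs most like the summed 5p rows, miRNAs with the same seed, and marker lists. Members and lists were chosen with earlier results of these data known. Mature sequences and gene positions came from RefSeq (GRCr8), which matched 6 of the 9 rows. The red blood cell list had 4 of its 5 miRNAs in the table, and miR-486 was not analysed here.

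Alternatives were DESeq2 (1.42.0), RLE, library-total and miR-28-3p scaling, filterByExpr, summed near-identical rows, replicate blocks, the hemolysis index or run as a term, and rats left out. Leaving out TBI rats, the subsets of TBI- rats, the 3 ratios and the 12 relations were chosen after the data were seen. Other versions were matplotlib 3.10.9, scipy 1.17.1, numpy 2.4.6 and pandas 2.3.3 under Python 3.11.15, and R 4.3.3.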

Additional observations from a re-analysis of the deposited data

Results flagged for a closer look

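In 54 sets of 1 row in 1 group on 1 day with 4 to 10 rats, 3 had a rat whose gap to the others was large for the range of the group by Dixon's criterion, and chance gives 2.7 of 54. miR-30e-5p in TBI- rat 2 on D9 was at 56876 CPM, with the other TBI- rats at 26942 to 41201 CPM. miR-30c-1-3p in the same library was at 84.3 CPM, with the others at 16.3 to 44.4 CPM. Without TBI- rat 2, 0 of the 9 rows were called from D2 to D9 in TBI- rats. miR-30e-3p in TBI+ rat 6 on D2 was at 719 CPM, with the other TBI+ rats at 532 to 604 CPM.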

How the results depend on the processing

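Calls among the 9 rows were 0 under every alternative run in TBI, TBI+ and TBI- against sham and TBI+ against TBI- on D2, in TBI+ and TBI- against sham and TBI+ against TBI- on D9, and in both tests of a difference in the D9-D2 change. In TBI against sham on D9 leaving out a sham rat gave 0 to 1 calls, with miR-30a-3p called without sham rat 4. From D2 to D9 in sham rats DESeq2 called 3 rows and miR-28-3p scaling 1. In TBI+ rats DESeq2 called 2, miR-28-3p scaling 2 and filterByExpr 2, and leaving out a rat gave 0 to 1, with the call made without rat 6. In TBI- rats (4 calls) the hemolysis index gave 0, the run term 0, the rats with both libraries in 1 run 0, the fit without the D9 libraries of rats 2 and 4 gave 1 (miR-30c-2-3p), and leaving out a rat gave 0 to 4. The rat as a block gave 3 calls and changed no other count. The animal number as a block changed no count, and deviations of same-numbered rats of different groups correlated by over 0.1 in 10 of 30 pairs. The cause of these changes was not tested.

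Signs turned where estimates were near 0. On D2 miR-30a-5p in TBI over sham (-0.02) was 0.031 with DESeq2, 0.031 with RLE, 0.050 with miR-28-3p scaling, 0.018 with filterByExpr and -0.10 to 0.0049 without a sham rat. miR-30c-5p (0.04) was -0.088 by library total, -0.087 with the hemolysis index, -0.13 in the exact permutation test and -0.13 to 0.10 without a sham rat. miR-30a-3p (0.13) was -0.011 by library total, -0.16 with the run term and -0.012 in the exact permutation test. On D9 miR-30a-5p (0.05) was -0.13 with DESeq2, -0.13 with RLE, -0.065 by library total, -0.18 with miR-28-3p scaling, -0.11 with filterByExpr, -0.063 in the exact permutation test and -0.078 to 0.11 without a sham rat. miR-30c-5p (0.55) was -0.027 with the run term and -0.038 with the animal number as a block. From D2 to D9 in TBI- rats miR-30d-5p (0.28) was -0.024 in the rats with both libraries in 1 run, and miR-30c-5p (-0.14) was 0.00012 there and 0.14 without the D9 libraries of rats 2 and 4. The depth of the sham D9 libraries (140636 to 358202 reads) limits the low 3p rows.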
